A study of Homo sapiens with 18 samples.

Results

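The integrated stress response is the set of genes by which a human cell turns off most protein synthesis under stress and turns on a small transcriptional programme. Its core is described here through 10 genes: the 4 kinases EIF2AK1, EIF2AK2, EIF2AK3 and EIF2AK4, the transcription factors ATF4, ATF5, ATF3 and DDIT3, and the phosphatase subunits PPP1R15A and PPP1R15B. The genes were chosen by name for their place in the pathway, with earlier results of these data known. They are 10 of 58336 gene IDs in the count table and 10 of the 19393 genes with enough counts to be tested. Positions given for genes are those of GENCODE 29 on GRCh38. As background, each kinase phosphorylates the translation initiation factor eIF2 in answer to its own stress: EIF2AK1 (also called HRI) to heme shortage and mitochondrial stress, EIF2AK2 (PKR) to double-stranded RNA, EIF2AK3 (PERK) to unfolded proteins in the endoplasmic reticulum and EIF2AK4 (GCN2) to uncharged tRNA. Phosphorylated eIF2 lowers translation of most mRNAs but favours that of ATF4 and ATF5, and ATF4 then activates genes such as ATF3, DDIT3 (CHOP) and PPP1R15A (GADD34). PPP1R15A and its constitutive relative PPP1R15B bring protein phosphatase 1 to eIF2 and so reverse the signal. Most of this control lies in phosphorylation and translation, which mRNA counts do not show.

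The cells were HEK293A, an adherent subline of the human embryonic kidney line HEK293, either wild type or with both Hippo pathway kinase genes, LATS1 and LATS2, knocked out. Cells of each genotype received water, ZnCl2 at 250 uM or CdCl2 at 50 uM for 4 h, giving 6 groups of 3 libraries and 18 libraries in all, with 25478614 to 37148046 counts each. The question was how far the transcriptional response to these metals depends on LATS1 and LATS2. The labels do not say whether the knockout is 1 clone, so an effect of the knockout and of the line cannot be told apart. They also do not say whether replicates came from separate cultures, so p-values rest on the spread of these libraries alone, which may be technical. In bulk RNA, fewer cells of a type and less RNA per cell cannot be told apart.

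LATS1 lay at 77.3 to 97.3 CPM (edgeR's unit for counts scaled to library size, here with TMM factors) in the 9 libraries labelled wild type and at 44.0 to 54.5 CPM in the 9 labelled knockout, with no overlap. In water LATS2 lay at 18.2 to 18.9 CPM in the knockout libraries and 16.2 to 16.5 CPM in the others, while with zinc it lay at 36.0 to 40.4 against 44.3 to 50.2 CPM and with cadmium at 23.8 to 25.7 against 39.0 to 44.7 CPM, and the labels do not give the place of the edits. Of 6 HEK293 markers, NEFL, GAL and LIN28B were at 20.1 CPM or more in every library, while NEFM, INA and PAX2 stayed at or under 4.14 CPM. The summed level of 4 fibroblast markers was 4.48 to 6.35 CPM in wild type and 16.6 to 22.0 CPM in knockout (COL3A1 at 2.07 to 19.0 CPM, DCN at or under 0.0341 CPM). Keratinocyte markers summed to at most 0.149 CPM, and HBB and KRT1 had no counts. The part of the COL3A1 difference in the genotype differences given here was not tested.

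Promoter sequence is shown for the 4 members whose response to metal is compared most closely: the phosphatase subunit that rose by 9.57-fold or more with metal and its relative that rose by 1.82-fold or less, and the transcription factors with the highest fold changes. The letters are the strand of transcription, 5′ to 3′, from RefSeq on GRCh38.p14, cut to bases upstream of the RefSeq start site that lie in no annotated exon. Capitals mark a match to TGATGNAA, the core of the C/EBP-ATF response element bound by ATF4 with a C/EBP partner, or to TGACGTCA, the cAMP response element bound by ATF and CREB factors.
PPP1R15A (chr19:48872171-48872391, plus strand): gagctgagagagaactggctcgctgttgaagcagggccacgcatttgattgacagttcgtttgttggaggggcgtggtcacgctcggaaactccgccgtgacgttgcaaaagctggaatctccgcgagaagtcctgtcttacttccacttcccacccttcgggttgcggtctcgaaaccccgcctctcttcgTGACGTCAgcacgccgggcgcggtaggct
PPP1R15B (chr1:204411818-204412067, minus strand): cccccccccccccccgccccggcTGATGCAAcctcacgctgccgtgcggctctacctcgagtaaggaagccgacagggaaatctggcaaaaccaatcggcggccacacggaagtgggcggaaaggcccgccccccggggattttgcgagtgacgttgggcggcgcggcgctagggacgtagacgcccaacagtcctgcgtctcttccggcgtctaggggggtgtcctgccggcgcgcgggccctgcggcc
ATF3 (chr1:212565157-212565333, plus strand): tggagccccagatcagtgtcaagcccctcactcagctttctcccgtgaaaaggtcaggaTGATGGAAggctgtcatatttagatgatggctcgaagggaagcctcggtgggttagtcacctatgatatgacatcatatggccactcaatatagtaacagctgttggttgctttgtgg
DDIT3 (chr12:57520518-57520709, minus strand): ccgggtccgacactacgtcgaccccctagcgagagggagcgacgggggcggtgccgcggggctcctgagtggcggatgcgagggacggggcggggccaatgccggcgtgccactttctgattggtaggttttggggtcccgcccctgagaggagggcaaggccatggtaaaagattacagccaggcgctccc

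The match in PPP1R15A lies 58 to 51 bases before the start site, that in PPP1R15B 227 to 220 bases before it and that in ATF3 191 to 184 bases before it. The stretch of DDIT3 holds neither motif, and neither does the window of another ATF3 start site, chr1:212614768-212615017, which is not shown. No other start site of ATF3 was searched, and which start site these cells used was not measured. The match in ATF3 may thus lie outside the promoter that was in use. Windows of 250 upstream bases were searched on both strands for these motifs and for the AP-1 site TGANTCA, the metal response element core TGCGCNC or TGCACNC, and the heat shock element GAANNTTC. RefSeq entries matched 9 of the 10 members, all but EIF2AK1. Of these 9, 2 held TGATGNAA (3.14% of all 35116 windows), 1 held TGACGTCA (1.65%), 3 held TGANTCA (6.57%), 3 held the metal response element core (24.8%) and 0 held GAANNTTC (5.78%). A member was counted if any of its windows matched, and ATF3, ATF4, ATF5 and DDIT3 had several. The percentages are per window, so the counts and percentages are not in the same unit. The AP-1 matches were in ATF5, DDIT3 and EIF2AK4 and the metal response element matches in DDIT3, EIF2AK2 and EIF2AK3. Those in DDIT3 lie outside the stretch shown. These are matches of letters, and no binding was measured.

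In wild-type cells both metals raised the mRNAs of DDIT3, ATF3 and PPP1R15A by 14.0-fold or more, that of EIF2AK3 by 2.46-fold or more and that of PPP1R15B by less than 2-fold. The mRNAs of the other 3 kinases fell by at most 1.44-fold. Zinc raised 6 of the 10 members and lowered 4, where 29.4% of all tested genes were called higher and 32.0% lower at an adjusted p under 0.05 (edgeR's quasi-likelihood test, Benjamini-Hochberg). Cadmium raised 5 and lowered 4, against 30.0% and 31.7% of all genes. At 2-fold or more, 4 members were higher with either metal, where 9.17% of genes were in zinc and 9.62% in cadmium. In the knockout zinc raised 6 members and lowered 3, against 28.2% and 27.7% of genes, and cadmium raised 6 and lowered 3, against 23.2% and 23.8%. The median log2 fold change of the 10 members ran from 0.46 to 0.65 over these 4 comparisons, where that of all genes lay between -0.01 and 0.00.

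**Figure D1:**
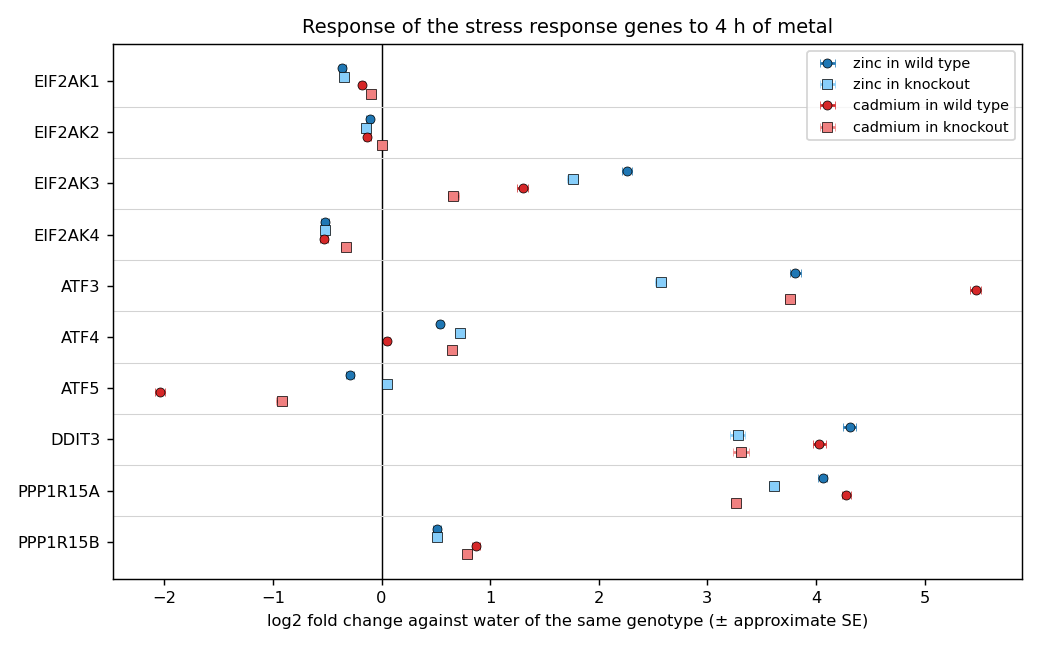
Log2 fold change of each member against water of the same genotype (x axis, ± approximate standard error) for zinc and cadmium in wild type (circles) and knockout (squares). ATF3, DDIT3 and PPP1R15A lie between 2.57 and 5.47, EIF2AK3 between 0.66 and 2.26, and ATF5 in cadmium at -2.04 and -0.92.

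Among the kinases, EIF2AK3 (ENSG00000172071, chromosome 2, 88556741 to 88627576), the sensor of unfolded proteins in the endoplasmic reticulum, rose with both metals and more with zinc. In wild type the 3 libraries read 15.2, 15.0 and 15.5 CPM in water, 76.9, 72.7 and 69.7 CPM in zinc and 36.5, 36.2 and 39.8 CPM in cadmium. In knockout they read 20.0, 20.9 and 19.9 CPM in water, 69.9, 69.0 and 67.1 CPM in zinc and 30.7, 33.2 and 32.4 CPM in cadmium. The 3 treatments did not overlap in either genotype, and the genotypes overlapped only in zinc. The log2 fold change in wild type was 2.26 ± 0.05 (SE) in zinc and 1.30 ± 0.05 in cadmium, and in knockout 1.76 ± 0.05 and 0.66 ± 0.05 (edgeR's quasi-likelihood test, Benjamini-Hochberg adjusted p at most 9.99e-14). The knockout started higher in water, by 0.41 ± 0.06 (adjusted p = 1.01e-07 in the same edgeR test). Its response was smaller by 0.50 ± 0.07 on the log2 scale for zinc (adjusted p = 9.78e-07, edgeR interaction test) and by 0.64 ± 0.08 for cadmium (adjusted p = 1.94e-08).

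EIF2AK4 (ENSG00000128829, chromosome 15, 39934146 to 40035591), the sensor of amino acid shortage, fell with both metals in both genotypes. Its group means in wild type were 89.4 ± 4.56 CPM (SD, n = 3) in water, 62.5 ± 3.79 CPM in zinc and 62.1 ± 0.849 CPM in cadmium. In knockout they were 113 ± 2.63, 78.6 ± 1.84 and 89.5 ± 2.18 CPM. Every metal library lay below all water libraries of its genotype. The zinc response had the same log2 size in both, -0.52 ± 0.04, with a difference of 95% interval -0.11 to 0.11. The cadmium response was -0.53 ± 0.04 in wild type and -0.33 ± 0.04 in knockout, a difference of 0.19 ± 0.06 (edgeR interaction test, Benjamini-Hochberg adjusted p = 0.00779). EIF2AK4 was higher in knockout under every treatment, by 0.33 ± 0.04 in water and zinc and by 0.53 ± 0.04 in cadmium.

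EIF2AK1 (ENSG00000086232, chromosome 7, 6022244 to 6059230), the heme-regulated kinase, fell by smaller amounts with the metals and was lower in knockout throughout. Wild-type libraries ran from 224 to 229 CPM for water, 176 to 177 for zinc and 198 to 201 for cadmium. Knockout libraries ran from 136 to 139, 107 to 110 and 127 to 130 CPM. All 9 knockout libraries thus lay below all 9 wild-type libraries. The log2 difference of knockout from wild type was -0.72 ± 0.03 in water, -0.71 ± 0.03 in zinc and -0.64 ± 0.03 in cadmium (edgeR's quasi-likelihood test, Benjamini-Hochberg adjusted p at most 8.24e-22). The metals moved it by -0.36 ± 0.03 (zinc) and -0.18 ± 0.03 (cadmium) in wild type and by -0.35 ± 0.03 and -0.10 ± 0.03 in knockout, and neither difference of responses passed the test (adjusted p = 0.885 and 0.131, edgeR).

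The deposited counts ignore strand, and 532 exon bases of EIF2AK1 lie opposite exons of AIMP2, a gene of the tRNA synthetase complex. In the files that split the strands, 21.7% of the reads at EIF2AK1 fell on the opposite strand, and these too were fewer in knockout, with group means of 29.7 to 33.6 CPM against 51.5 to 63.3 CPM. This is not a share of the deposited count, since the own strand of EIF2AK1 alone held 100.4% of that count. Counted on its own strand alone, EIF2AK1 still differed by -0.71 ± 0.03 in water, -0.70 ± 0.03 in zinc and -0.63 ± 0.03 in cadmium. EIF2AK2 (ENSG00000055332, chromosome 2, 37099210 to 37157065), the kinase activated by double-stranded RNA, moved least of the kinases. Its 18 libraries lay between 140 and 165 CPM, and its log2 changes with metal were -0.11 ± 0.03 and -0.13 ± 0.03 in wild type for zinc and cadmium and -0.14 ± 0.03 in knockout for zinc. In cadmium-treated knockout cells the change was 0.00 ± 0.03 (adjusted p = 0.923, edgeR), and with library size alone as scaling it was -0.11 (adjusted p = 0.00742, edgeR).

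**Figure D2:**
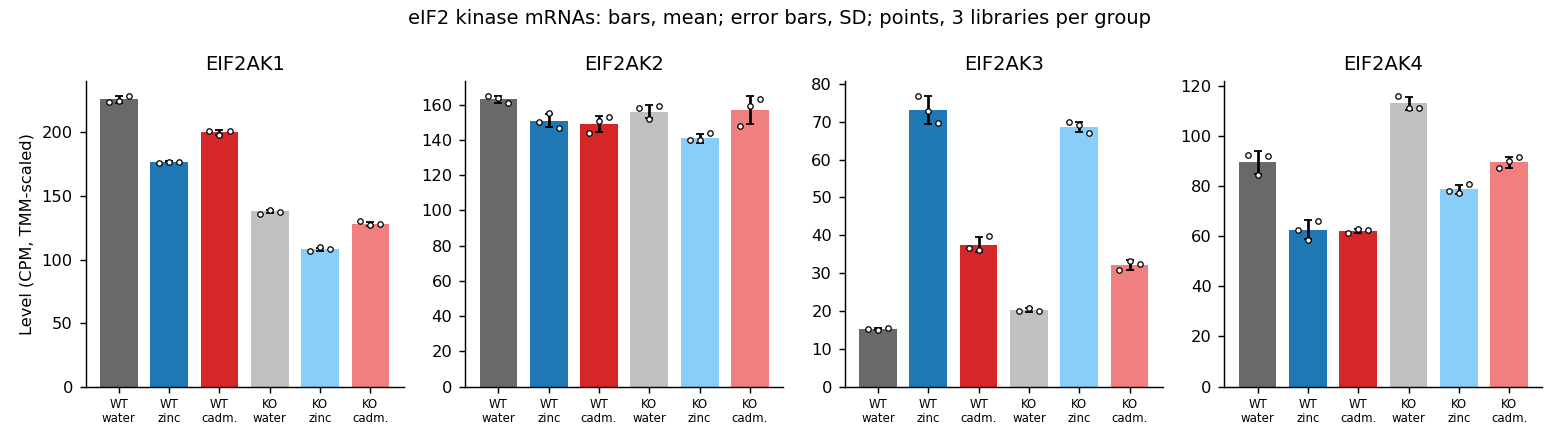
Level of the 4 eIF2 kinase mRNAs (y axis, CPM from 0) in the 6 groups, with bars for the mean, error bars for the SD and points for the 3 libraries (KO, knockout; cadm., cadmium). EIF2AK3 goes from 15.2 CPM in wild-type water to 73.1 CPM in zinc, EIF2AK1 is lower in all knockout groups, and EIF2AK2 stays between 141 and 163 CPM on average.

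Per kilobase of exon, which allows levels of different genes to be set side by side, EIF2AK1 was the most abundant kinase mRNA in all 6 groups. The length was that of all annotated exons of a gene merged, 5550 bases for EIF2AK1 and 10753 for EIF2AK2, and the order depends on it. In CPM without length, EIF2AK2 stood above EIF2AK1 in knockout. Its means were 156 against 138 CPM in water, 141 against 108 in zinc and 157 against 128 in cadmium. EIF2AK3 made up 4.24 ± 0.024% of the 4 kinases' CPM per kilobase in wild-type water, 20.8 ± 0.841% in zinc and 11.1 ± 0.432% in cadmium. In knockout its share was 7.10 ± 0.208%, 24.4 ± 0.557% and 11.6 ± 0.327%. The share of EIF2AK1 was 61.5 ± 0.481% in wild-type water and 49.3 ± 0.532% in zinc, against 47.3 ± 0.612% and 37.6 ± 0.367% in knockout. By this measure EIF2AK3 went from the last of the 4 kinases in water to the third in zinc in both genotypes. In CPM without length, EIF2AK3 stayed below EIF2AK4 in knockout zinc, at 68.6 against 78.6 CPM. Counts of EIF2AK3 on its own strand were 133.1% of the deposited ones over all libraries. With these its share in wild type was 5.38%, 25.7% and 14.3% in water, zinc and cadmium. In zinc EIF2AK3 then stood above EIF2AK2 in both genotypes. Opposite EIF2AK3 the annotation places 2 antisense genes, over 781 and 38 of its exon bases.

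ATF4 (ENSG00000128272, chromosome 22, 39519695 to 39522685), the factor whose translation the pathway favours, was the most abundant member mRNA per kilobase of exon in water and changed by at most 1.64-fold with metal. The wild-type libraries read 403, 377 and 394 CPM in water, 570, 570 and 565 CPM in zinc and 415, 392 and 412 CPM in cadmium. The knockout libraries read 313, 306 and 294 CPM in water, 501, 504 and 495 CPM in zinc and 493, 468 and 468 CPM in cadmium. Wild-type cadmium overlapped wild-type water, while in knockout both metal groups lay above water. Zinc raised ATF4 by 0.54 ± 0.03 on the log2 scale in wild type and by 0.72 ± 0.03 in knockout, and cadmium raised it by 0.65 ± 0.03 in knockout (edgeR's quasi-likelihood test, Benjamini-Hochberg adjusted p at most 1.06e-18).

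In cadmium-treated wild type the log2 change of ATF4 was 0.05 ± 0.03 (edgeR, adjusted p = 0.106). That call depended on the settings: it was 0.08 with a Benjamini-Hochberg adjusted p of 0.0129 in edgeR among genes at 5 CPM or more in 3 libraries, and -0.07 (adjusted p = 0.0397) with library size alone, and 0.08 without wild-type cadmium replicate 2 (adjusted p = 0.0312). The difference of the cadmium response between genotypes was 0.59 ± 0.04 (adjusted p = 7.17e-14, edgeR interaction test) and that of the zinc response 0.18 ± 0.04 (adjusted p = 0.00116). The knockout thus held less ATF4 mRNA than wild type in water (-0.36 ± 0.03) and in zinc (-0.18 ± 0.03) and more in cadmium (0.23 ± 0.03). Processed copies of ATF4 took few reads, with 998 counts for ATF4P4 and 80 for ATF4P3 over 18 libraries against 245625 for ATF4.

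ATF5 (ENSG00000169136, chromosome 19, 49928702 to 49933935), a relative of ATF4 whose translation is controlled in a similar way and which is linked to mitochondrial stress, was the only member to fall by 2-fold or more in cadmium-treated wild type, where 4.41% of genes did. The wild-type libraries read 74.3, 68.1 and 66.1 CPM in water, 56.9, 57.5 and 56.2 CPM in zinc and 17.1, 16.6 and 17.0 CPM in cadmium. The knockout libraries read 61.6, 61.3 and 58.5 CPM in water, 60.4, 61.4 and 65.4 CPM in zinc and 32.5, 31.0 and 31.8 CPM in cadmium. Cadmium libraries were the lowest in both genotypes without overlap, and knockout zinc overlapped knockout water.

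Cadmium lowered ATF5 by 2.04 ± 0.05 on the log2 scale in wild type, a 4.10-fold fall, and by 0.92 ± 0.05 in knockout (edgeR's quasi-likelihood test, Benjamini-Hochberg adjusted p at most 8.76e-20). The responses differed by 1.11 ± 0.07 (adjusted p = 1.06e-15, edgeR interaction test). Zinc lowered ATF5 by 0.29 ± 0.04 in wild type, its change in knockout was 0.05 ± 0.04 (adjusted p = 0.347, edgeR), and the difference was 0.34 ± 0.06 (adjusted p = 3.48e-05). Exons of NUP62, a nuclear pore gene, lie opposite 626 exon bases of ATF5. In the split-strand files 10.8% of the reads there were on the opposite strand, and the own strand held 114.2% of the deposited count. On its own strand ATF5 fell by 2.01 ± 0.05 and 0.89 ± 0.04 with cadmium, with a difference of 1.11 ± 0.06.

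ATF3 (ENSG00000162772, chromosome 1, 212565334 to 212620777), a stress-induced factor of the same family that can repress as well as activate, had the largest fold change of the members with cadmium. In wild type its libraries read 40.9, 39.9 and 41.5 CPM in water, 591, 627 and 500 CPM in zinc and 1800, 1810 and 1820 CPM in cadmium. In knockout they read 87.8, 94.1 and 87.0 CPM in water, 521, 528 and 549 CPM in zinc and 1230, 1190 and 1220 CPM in cadmium. Water, zinc and cadmium did not overlap in either genotype, the genotypes overlapped in zinc, and the lowest of the wild-type zinc libraries was replicate 3. The log2 fold change was 3.81 ± 0.05 in zinc and 5.47 ± 0.05 in cadmium in wild type, or 44.4-fold for cadmium, and 2.57 ± 0.05 and 3.76 ± 0.05 in knockout (edgeR's quasi-likelihood test, Benjamini-Hochberg adjusted p at most 4.02e-34).

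The log2 response of ATF3 was smaller in knockout by 1.24 ± 0.07 for zinc and by 1.71 ± 0.07 for cadmium (edgeR interaction test, Benjamini-Hochberg adjusted p = 3.96e-17 and 2.25e-21). In water ATF3 was higher in knockout by 1.14 ± 0.05. After cadmium the knockout held less ATF3 mRNA, by 0.58 ± 0.04. After zinc the difference was -0.10 ± 0.04 with an adjusted p of 0.0276 in edgeR, and the call was lost in 8 of 25 alternative settings. Among these were DESeq2 (adjusted p = 0.0921), library size alone (0.0985), and leaving out zinc replicate 1 (0.0948) or 2 (0.361) of wild type or 1 (0.107) or 2 (0.0757) of knockout in edgeR. Wild-type zinc replicate 3 stood furthest from its group over all genes, at a chi-square of 4.96 and 5.04 per degree of freedom against replicates 1 and 2, which had 1.88 between them. Without it the ATF3 difference in zinc was -0.20 (adjusted p = 1.44e-07, edgeR) and the zinc response difference was -1.33, in place of -1.24.

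DDIT3 (ENSG00000175197, chromosome 12, 57516588 to 57521737), the factor that links a long stress response to cell death, had the largest log2 change of the members with zinc in wild type. In wild type its libraries read 12.8, 12.5 and 11.2 CPM in water, 254, 231 and 233 CPM in zinc and 206, 196 and 192 CPM in cadmium. In knockout they read 8.04, 8.34 and 7.99 CPM in water, 76.3, 86.5 and 74.8 CPM in zinc and 87.4, 78.1 and 75.9 CPM in cadmium. Each treatment had all knockout libraries below all wild-type libraries, and in knockout zinc and cadmium overlapped. The log2 fold change in wild type was 4.31 ± 0.06 in zinc and 4.03 ± 0.06 in cadmium, and in knockout 3.28 ± 0.07 and 3.31 ± 0.07 (edgeR's quasi-likelihood test, Benjamini-Hochberg adjusted p at most 2.51e-32). The response was smaller in knockout by 1.02 ± 0.10 for zinc (adjusted p = 5.60e-10, edgeR interaction test) and by 0.72 ± 0.10 for cadmium (adjusted p = 6.82e-07).

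The knockout held 1.49-fold less DDIT3 mRNA in water, 3.02-fold less in zinc and 2.46-fold less in cadmium. Exons of MARS and MBD6 lie opposite 355 and 58 of the 1307 exon bases of DDIT3, and its own strand held 138.5% of the deposited count. On that strand the group means were 16.9, 316 and 270 CPM in wild type and 11.5, 106 and 109 CPM in knockout for water, zinc and cadmium, and the response differences were -1.03 ± 0.08 and -0.75 ± 0.08. The level of DDIT3 was thus higher on its own strand, while its changes were close in both counts.

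**Figure D3:**
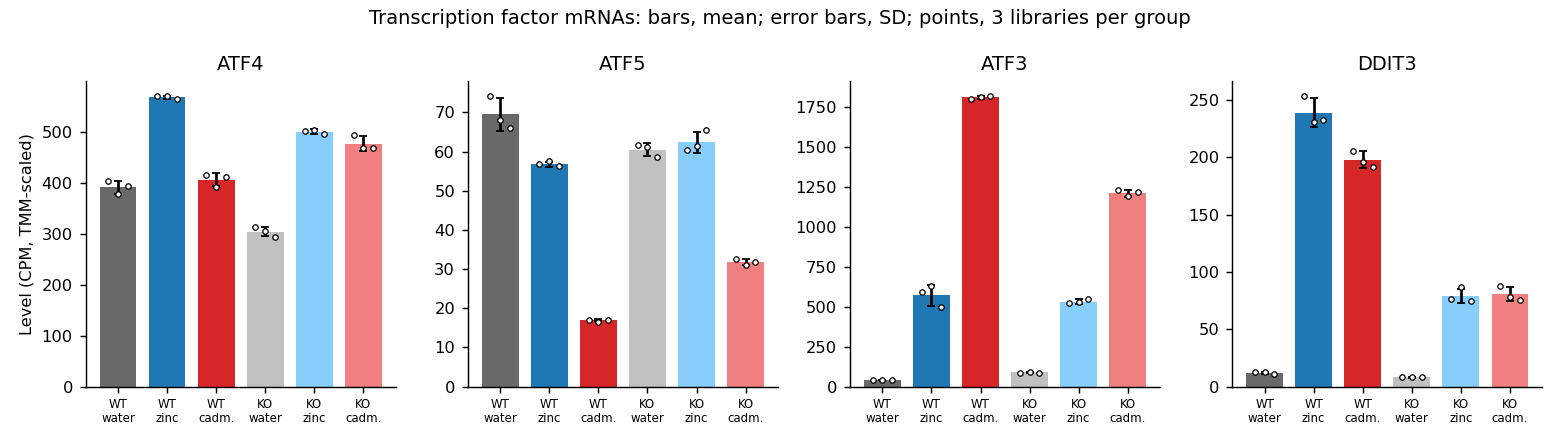
Level of ATF4, ATF5, ATF3 and DDIT3 mRNA (y axis, CPM from 0, its own scale in each panel) in the 6 groups, with bars for the mean, error bars for the SD and points for the 3 libraries. ATF3 and DDIT3 are low in water, ATF5 is lowest in cadmium with means of 16.9 CPM (wild type) and 31.8 CPM (knockout), and DDIT3 is lower in knockout than in wild type under every treatment.

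Set against ATF4 per kilobase of exon, DDIT3 in the deposited counts stood at a ratio of 0.0598 ± 0.00474 in wild-type water, 0.810 ± 0.0417 in zinc and 0.938 ± 0.0378 in cadmium. In knockout the ratio was 0.0514 ± 0.00167, 0.304 ± 0.0222 and 0.325 ± 0.0147. The metal-treated knockout libraries all lay below the metal-treated wild-type libraries, with 0.290 to 0.341 against 0.778 to 0.964. With own-strand counts the ratio of DDIT3 to ATF4 was 0.0863 ± 0.00233, 1.10 ± 0.0491 and 1.32 ± 0.0529 in wild type, so that DDIT3 lay above ATF4 in all metal-treated wild-type libraries, and 0.0758 ± 0.00183, 0.419 ± 0.0281 and 0.457 ± 0.0120 in knockout. The ratio of ATF3 to ATF4 went the other way in water, at 0.0648 ± 0.00146 in wild type and 0.183 ± 0.00844 in knockout, and reached 2.78 ± 0.0960 and 1.59 ± 0.0341 in cadmium. In zinc it was 0.627 ± 0.0688 and 0.662 ± 0.0238, and the libraries of both genotypes overlapped.

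PPP1R15A (ENSG00000087074, chromosome 19, 48872392 to 48876057), the inducible subunit that directs dephosphorylation of eIF2, rose strongly with both metals. Its wild-type libraries read 39.3, 40.2 and 42.0 CPM in water, 703, 666 and 660 CPM in zinc and 760, 761 and 848 CPM in cadmium. Its knockout libraries read 75.9, 78.8 and 79.0 CPM in water, 919, 994 and 945 CPM in zinc and 757, 719 and 760 CPM in cadmium. Knockout was above wild type in water and in zinc without overlap, and in cadmium the knockout libraries lay at or just below the lowest wild-type library. The log2 fold change was 4.06 ± 0.04 in zinc and 4.28 ± 0.04 in cadmium in wild type, and 3.61 ± 0.04 and 3.26 ± 0.04 in knockout (edgeR's quasi-likelihood test, Benjamini-Hochberg adjusted p at most 9.33e-40).

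The log2 response of PPP1R15A was smaller in knockout by 0.45 ± 0.06 for zinc and by 1.02 ± 0.06 for cadmium (edgeR interaction test, Benjamini-Hochberg adjusted p = 8.38e-08 and 6.57e-17), from a baseline that was higher by 0.94 ± 0.04. The 2 metals were ordered differently by genotype: cadmium stood above zinc by 0.22 ± 0.03 in wild type and below it by 0.35 ± 0.03 in knockout. After cadmium the genotypes differed by -0.08 ± 0.03 (adjusted p = 0.0326, edgeR), a call lost in 7 of 25 alternative settings. Among these were DESeq2 (adjusted p = 0.104), library size alone (0.578), and leaving out cadmium replicate 3 of wild type (0.331) or 2 of knockout (0.168) in edgeR.

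PPP1R15B (ENSG00000158615, chromosome 1, 204403387 to 204411791), the constitutive subunit, rose by less and by nearly the same amount in both genotypes. Its means were 88.7 ± 1.11, 126 ± 1.53 and 162 ± 6.98 CPM in wild type and 74.2 ± 0.991, 106 ± 6.01 and 129 ± 2.38 CPM in knockout for water, zinc and cadmium. The treatments did not overlap within a genotype. Zinc raised it by 0.51 ± 0.04 in both, with a difference whose 95% interval was -0.10 to 0.10, and cadmium by 0.87 ± 0.04 and 0.79 ± 0.04, with an interval of -0.17 to 0.03. It was lower in knockout by 0.26 ± 0.04 in water and zinc and by 0.33 ± 0.03 in cadmium. Per kilobase of exon, PPP1R15A stood at 0.772 ± 0.0292 of PPP1R15B in wild-type water, 9.05 ± 0.373 in zinc and 8.25 ± 0.175 in cadmium. In knockout the ratio was 1.77 ± 0.0279, 15.3 ± 0.849 and 9.80 ± 0.321, above all wild-type libraries of the same treatment.

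**Figure D4:**
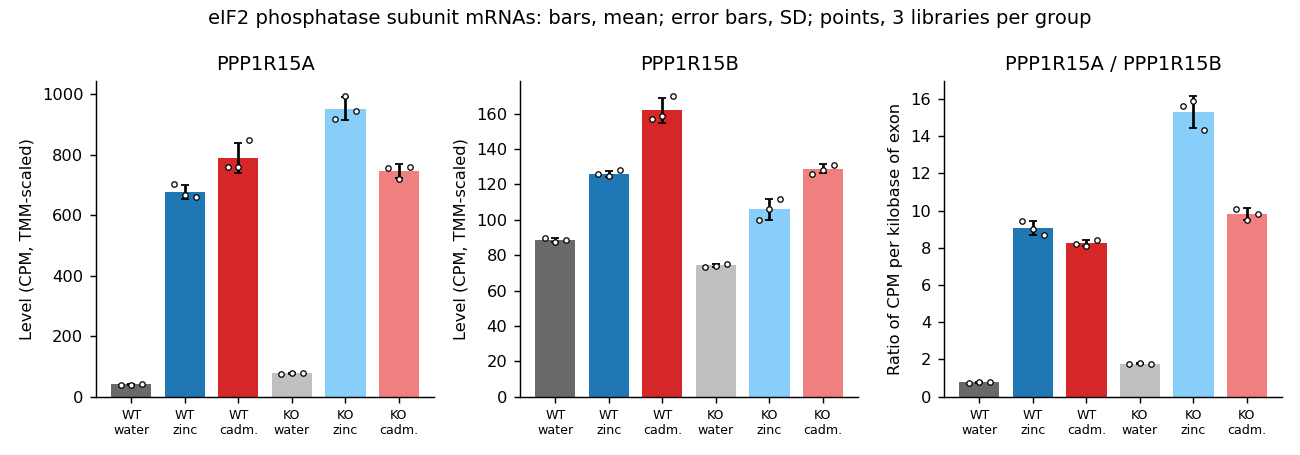
Level of PPP1R15A and PPP1R15B mRNA (y axis, CPM from 0) and their ratio per kilobase of exon in the 6 groups, with bars for the mean, error bars for the SD and points for the 3 libraries. The ratio runs from 0.772 in wild-type water to 15.3 in zinc-treated knockout.

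On the log2 scale, 4 members had a smaller rise in knockout for both metals: EIF2AK3, ATF3, DDIT3 and PPP1R15A. A smaller fold is not always a smaller rise in level. PPP1R15A went from 77.9 to 952 CPM with zinc in knockout and from 40.5 to 676 CPM in wild type. The zinc interaction was called higher for 2 members, ATF4 and ATF5, and lower for the 4 named first, where 14.1% of all genes were called higher and 10.5% lower in edgeR. The cadmium interaction was called higher for 4 and lower for 4, against 14.0% and 14.1% of genes. EIF2AK2 is among the 4 higher, at 0.13 ± 0.05 (edgeR interaction test, Benjamini-Hochberg adjusted p = 0.0332), a call that was lost in 7 of 25 alternative settings. In edgeR 6 of these left out a library: cadmium replicate 2 (adjusted p = 0.069) or 3 (0.134) or water replicate 2 (0.101) of knockout, or cadmium replicate 1 (0.119) or water replicate 1 (0.0674) or 2 (0.0537) of wild type. By 2-fold or more, the response of ATF3 and DDIT3 was smaller for zinc, and that of ATF3 and PPP1R15A for cadmium, where 1.62% and 2.42% of genes were. The 2 interactions share the wild-type and knockout water libraries, so they are not independent.

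**Figure D5:**
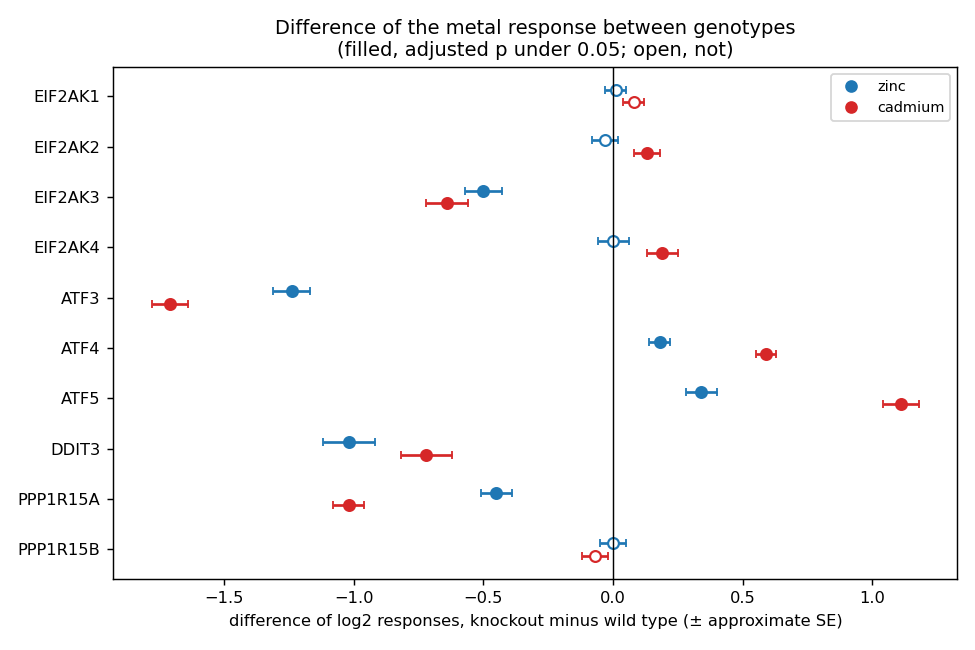
Difference of the log2 response between genotypes, knockout minus wild type (x axis, ± approximate standard error), for zinc and cadmium and each member; filled points passed the test at an adjusted p under 0.05. ATF3, DDIT3, PPP1R15A and EIF2AK3 lie below 0 for both metals, and ATF4 and ATF5 lie above 0.

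In water, 4 members were higher in knockout (ATF3, EIF2AK3, EIF2AK4 and PPP1R15A) and 5 lower (EIF2AK1, ATF4, ATF5, DDIT3 and PPP1R15B), where 30.8% of genes were called higher and 32.1% lower in edgeR. In zinc 3 were higher and 6 lower, against 34.0% and 32.7%, and in cadmium 3 higher and 6 lower, against 32.6% and 34.5%. Between the metals, cadmium stood above zinc for 4 members and below it for 4 in wild type, against 27.3% and 25.0% of genes, and above for 5 and below for 4 in knockout, against 24.0% and 24.3%. In wild type ATF3 was 3.16-fold higher in cadmium than in zinc, while ATF5 was 3.36-fold and EIF2AK3 1.95-fold lower. In knockout the same 3 genes differed by 2.28-fold, 1.96-fold and 2.14-fold in the same directions.

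Per kilobase of exon the order of the members changed with treatment. In wild-type water ATF4 led with 156 ± 5.22 CPM per kilobase, ahead of EIF2AK1 (40.7 ± 0.484) and ATF5 (23.5 ± 1.46), and EIF2AK3 was last with 2.81 ± 0.0424, with no neighbours overlapping. In zinc ATF4 (226 ± 1.17) and PPP1R15A (219 ± 7.63) overlapped at the top. In cadmium ATF3 led with 448 ± 2.89, ahead of PPP1R15A (255 ± 16.3), and ATF4 (162 ± 5.08) overlapped DDIT3 (152 ± 5.71). With own-strand counts the place of DDIT3 changed in wild type. It led in zinc with 242 ± 11.0, above ATF4 (219 ± 1.09), it stood above ATF4 in cadmium with 207 ± 8.75 against 157 ± 4.83, in both without overlap, and in water it overlapped PPP1R15A. In knockout, with either count, ATF4 led in water (121 ± 3.64), PPP1R15A in zinc (308 ± 12.3) and ATF3 in cadmium (300 ± 5.64).

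Among genes of the same pathway, those encoding eIF2 and its exchange factor eIF2B changed in both directions. Of 8 tested, zinc raised 1 and lowered 4 in wild type, cadmium raised 4 and lowered 1, and in knockout the counts were 2 and 3 for zinc and 2 and 2 for cadmium (edgeR, adjusted over all genes). Over all genes, 29.4%, 30.0%, 28.2% and 23.2% were called higher in these comparisons, for zinc and cadmium in wild type and then in knockout, and 32.0%, 31.7%, 27.7% and 23.8% lower. The count that fell with cadmium in knockout was 1 without cadmium replicate 2 or 3 or water replicate 1 of knockout and 5 with library size alone, and the count that rose with zinc in wild type was 2 without wild-type zinc replicate 3. EIF2S2, the beta subunit of eIF2, rose from 182 ± 7.08 to 311 ± 13.9 CPM in zinc and 347 ± 11.9 CPM in cadmium in wild type, and from 206 ± 3.02 to 235 ± 3.37 and 282 ± 8.41 CPM in knockout. Its response was smaller in knockout by 0.58 ± 0.05 and 0.48 ± 0.05 on the log2 scale (adjusted p at most 2.18e-10, edgeR interaction test). EIF2B5, the catalytic subunit of eIF2B, fell in zinc by 0.60 ± 0.03 in wild type and 0.28 ± 0.03 in knockout. EIF2B4, its delta subunit, fell by 0.21 ± 0.05 in zinc and 0.28 ± 0.05 in cadmium in wild type. The list's median log2 change lay between -0.06 and 0.12 in the 4 comparisons.

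Of 8 regulators of the kinases, 4 fell in each of the 4 metal comparisons, where 23.8% to 32.0% of all genes did. Over all settings that count ran from 3 to 6 for cadmium in wild type and from 3 to 5 for cadmium in knockout. For zinc it ran from 4 to 5 in wild type and stayed at 4 in knockout. GCN1, the partner needed to activate EIF2AK4, fell from 462 ± 14.5 CPM to 257 ± 1.60 CPM in zinc and 313 ± 3.47 CPM in cadmium in wild type, and from 339 ± 4.91 to 225 ± 4.17 and 285 ± 5.83 CPM in knockout. OMA1, the mitochondrial protease that acts upstream of EIF2AK1, fell by 0.57 ± 0.07 in zinc and 0.28 ± 0.07 in cadmium in wild type. DNAJC3, an inhibitor of EIF2AK2 and EIF2AK3, rose in zinc by 0.62 ± 0.05 in wild type and by 0.80 ± 0.04 in knockout. The count of regulators that rose was 1 with zinc and 2 with cadmium in each genotype, and with library size alone as scaling it was 0 with cadmium in each.

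Of 5 C/EBP factors, which pair with ATF4, ATF5 and DDIT3, 4 were tested and CEBPE was not. CEBPB and CEBPG rose in all 4 metal comparisons and CEBPA fell in all 4. CEBPD, at 3.39 CPM on average, was called higher with zinc in wild type and was not called in the other comparisons with water. The count of 3 that rose with zinc in wild type was 2 in some alternative settings. Of all genes, 23.2% to 30.0% rose and 23.8% to 32.0% fell in these 4 comparisons. CEBPB went from 9.55 ± 1.08 CPM to 48.0 ± 2.78 in zinc and 78.4 ± 6.08 in cadmium in wild type, and from 11.5 ± 0.757 to 25.9 ± 1.07 and 64.2 ± 2.07 in knockout. CEBPG, a partner of ATF4, went from 95.6 ± 2.36 to 283 ± 10.9 and 321 ± 9.59 CPM in wild type and from 72.1 ± 1.56 to 123 ± 1.87 and 202 ± 3.53 CPM in knockout. Both responded less in knockout, CEBPB by 1.16 ± 0.10 and 0.56 ± 0.10 and CEBPG by 0.80 ± 0.05 and 0.26 ± 0.05 on the log2 scale for zinc and cadmium (edgeR interaction test, Benjamini-Hochberg adjusted p at most 3.43e-05).

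Of 10 other ATF and CREB genes, zinc raised 5 and lowered 1 in wild type and raised 3 and lowered 4 in knockout, and cadmium raised 5 and lowered 4 in wild type and raised 4 and lowered 3 in knockout. Of all genes, 23.2% to 30.0% rose and 23.8% to 32.0% fell in these comparisons. The count lowered by cadmium was 2 without wild-type cadmium replicate 3 in wild type and, in knockout, 1 without knockout cadmium replicate 1 and 6 with library size alone, while that lowered by zinc in wild type was then 4. CREB5, a relative of ATF2, rose from 37.8 ± 4.08 to 163 ± 4.26 CPM in zinc and 162 ± 7.54 CPM in cadmium in wild type and from 16.4 ± 0.174 to 62.4 ± 2.68 and 60.1 ± 2.28 CPM in knockout. JDP2, a repressor close to ATF3 in sequence, rose with zinc in wild type (1.15 ± 0.12) and fell in knockout (-0.47 ± 0.08), a difference of -1.61 ± 0.15 (adjusted p = 5.16e-11, edgeR interaction test). It began at 3.51 ± 0.251 CPM in wild-type water and at 17.4 ± 0.556 CPM in knockout water. CREM, a cAMP-responsive factor, rose in all 4 comparisons, by 0.39 ± 0.05 to 1.06 ± 0.05.

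Known targets of ATF4 and DDIT3, 26 genes of amino acid metabolism, stress and cell death, rose with both metals in wild type, where 29.4% of all genes rose with zinc and 30.0% with cadmium. In zinc 23 rose and 3 fell (median log2 change 1.04, all genes -0.01) and in cadmium 23 rose and 1 fell (1.21, all genes -0.01). Of all genes 32.0% fell with zinc and 31.7% with cadmium. In knockout zinc raised 14 and lowered 4 (0.27, all genes 0.00), where 28.2% of all genes rose and 27.7% fell. Over all settings the count raised by zinc ran from 11 to 17 in knockout and from 21 to 23 in wild type. Cadmium in knockout raised 24 and lowered 1 (0.78), against 23.2% and 23.8% of all genes. The zinc response was called smaller in knockout for 16 of the 26 and larger for 2 (median -0.59, all genes 0.02), and the cadmium response smaller for 13 and larger for 5 (median -0.18, all genes 0.01). Of all genes 10.5% and 14.1% had a smaller and 14.1% and 14.0% a larger response, and the count of larger cadmium responses was 3 without knockout cadmium replicate 3 or wild-type cadmium replicate 1. After zinc 24 of the 26 were lower in knockout than in wild type, against 32.7% of all genes (median -1.39, all genes 0.00). The other 2, TNFRSF10B and GADD45A, were higher, as were 34.0% of all genes.

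Among these targets, CHAC1, an enzyme that degrades glutathione, went from 1.69 ± 0.311 CPM to 49.6 ± 4.60 in zinc and 50.0 ± 0.709 in cadmium in wild type, and from 1.92 ± 0.297 to 16.3 ± 0.806 and 70.0 ± 4.27 CPM in knockout. Its zinc response was smaller in knockout by 1.76 ± 0.19 (adjusted p = 3.97e-09, edgeR interaction test), and that to cadmium differed by 0.34 ± 0.19 (adjusted p = 0.190). TRIB3, a pseudokinase that restrains ATF4 and DDIT3, went from 21.4 ± 0.488 to 141 ± 14.4 and 328 ± 11.8 CPM in wild type and from 27.5 ± 1.95 to 30.5 ± 1.31 and 138 ± 3.98 CPM in knockout. In knockout its change with zinc was 0.14 ± 0.06 (adjusted p = 0.0489, edgeR), and its zinc response differed by -2.58 ± 0.08. The call for zinc in knockout was lost with library size alone (0.05, adjusted p = 0.492) and in 7 edgeR fits without 1 library, namely water replicate 1 (0.118) or 2 (0.251) or zinc replicate 1 (0.0886) or 2 (0.143) of knockout, or water replicate 1 (0.0568) or 2 (0.0561) or cadmium replicate 1 (0.0521) of wild type. SESN2, which represses mTORC1 when leucine is low, went from 39.0 ± 1.21 to 532 ± 17.4 and 364 ± 1.55 CPM in wild type and from 36.5 ± 0.620 to 145 ± 6.05 and 226 ± 6.98 CPM in knockout. These 3 were far below wild type in zinc-treated knockout, where ATF4 mRNA stood at 500 ± 4.68 CPM against 568 ± 2.95 CPM.

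Genes whose pattern over the 6 group means was most like that of a member were found by the root mean square difference of log2 levels, each centred on its own mean, among 11107 named genes of at least 5 CPM. Members themselves were left out of the listing. The closest to EIF2AK3 were ZNF460 (0.125), ERN1, which encodes the endoplasmic reticulum stress sensor IRE1 (0.149), and ZSWIM4 (0.180). For DDIT3 they were the zinc exporter SLC30A1 (0.397), SESN2 (0.460) and the histone gene HIST1H2BN (0.464). For PPP1R15A they were the HSP70 cochaperone BAG3 (0.273), the AP-1 subunit FOSL1 (0.312) and the chaperone HSPH1 (0.390). For ATF3 they were BAG3 (0.631), ZFAND2A (0.660) and CHAC1 (0.673), further away than the genes listed for any other member, with the member PPP1R15A at 0.653. For ATF5 they were ZNF319 (0.233), OSR2 (0.240) and MEX3B (0.244), and for ATF4 EBF4 (0.093), BTN2A3P (0.097) and FOXO3 (0.108). PPP1R15B and the other 3 kinases had neighbours at 0.025 to 0.070.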

How the data were processed

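RNA of 18 libraries was sequenced as stranded TruSeq mRNA libraries, per the labels' protocols. The authors deposited raw read counts for each Ensembl gene, in a series table equal to the both-strand column of the sample files. STAR, hg38 and GRCh38.p13 are named per the submitters' processing notes, while which counter and annotation were used is not given in the sources used here. Of 58336 IDs, 58216 were found in GENCODE 29.

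Genes passing filterByExpr (minimum count 10) were fitted with edgeR 4.0.16 in R 4.3.3, with TMM factors, 1 mean per group over all 6 groups and the quasi-likelihood test. P-values were adjusted by Benjamini-Hochberg over 19393 genes, with a threshold of 0.05. Each response difference is an interaction contrast. Standard errors are approximate, from the test statistic. The fit was tested on simulated data. The median biological coefficient of variation was 3.93%. Library pairs within a group differed by more than sampling noise (chi-square per degree of freedom 1.61 to 5.04), so none was a copy of another. Counts of the strand with most reads, DESeq2 1.42.0, other scalings and filters, a replicate block and leaving out each library were alternatives.

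The members and lists were chosen with earlier results of these data known. All members are named, and from each pathway list the 3 genes (at least 5 CPM on average over all libraries) with the largest called change in a metal comparison. For each member the 3 genes of most similar pattern are named too.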

Additional observations from a re-analysis of the deposited data

Results flagged for a closer look

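For 8 members the response to a metal differed between genotypes by a test of the difference itself (edgeR interaction test, Benjamini-Hochberg adjusted p under 0.05), which gives 14 results. All values are log2 responses of knockout minus wild type, with 3 libraries in each group. For zinc the difference was -0.50 for EIF2AK3, -1.24 for ATF3, 0.18 for ATF4, 0.34 for ATF5, -1.02 for DDIT3 and -0.45 for PPP1R15A. For cadmium it was 0.13 for EIF2AK2, -0.64 for EIF2AK3, 0.19 for EIF2AK4, -1.71 for ATF3, 0.59 for ATF4, 1.11 for ATF5, -0.72 for DDIT3 and -1.02 for PPP1R15A. In both metals ATF3 had the difference farthest from 0 among the members. The calls of EIF2AK3, EIF2AK4, ATF3, ATF4, ATF5, DDIT3 and PPP1R15A held in all 25 alternative settings, and that of EIF2AK2 did not hold in 7.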

How the results depend on the processing

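Of 110 results on members, 91 kept their direction and their side of the threshold in all 25 alternative settings, and no count of called members, or of called genes over the whole table, moved by more than 1.5 times. Some counts in the pathway lists did. That of ATF4 and DDIT3 targets lowered by cadmium in wild type went from 1 to 2 with library size alone, no filter, a replicate block and, leaving out 1 library, without cadmium replicate 1 or 2, any water replicate or zinc replicate 2 of knockout, or cadmium replicate 3, water replicate 1 or zinc replicate 3 of wild type. The cause of the changes below was not tested. All values are log2 changes, with knockout minus wild type for the differences of responses. With library size alone as scaling, the change turned to -0.065 for ATF4 with cadmium in wild type, -0.043 for ATF5 with zinc in knockout, -0.108 for EIF2AK2 with cadmium in knockout and -0.015 for the zinc response difference of EIF2AK1. That difference was also -0.008 with DESeq2 and -0.001 among genes of at least 5 CPM in 3 libraries. EIF2AK2 with cadmium in knockout was -0.003 with no filter on low counts. The zinc response differences of EIF2AK4 and PPP1R15B were 0.003 each when only the groups compared were fitted, and 0.003 and 0.0 with own-strand counts.

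Leaving out each library in turn changed the sign of 6 results, none of which passed the test with all libraries. Cadmium against zinc ran from -0.044 to 0.089 for DDIT3 in knockout, from -0.034 to 0.011 for EIF2AK2 in wild type and from -0.055 to 0.037 for EIF2AK4 in wild type. EIF2AK2 with cadmium in knockout ran from -0.029 to 0.05, and the zinc response differences of EIF2AK4 and PPP1R15B from -0.046 to 0.044 and from -0.043 to 0.048. Some differences near the threshold changed sides in edgeR. That of ATF5 between genotypes in zinc lost its call without knockout zinc replicate 3 (adjusted p = 0.0731). That of EIF2AK2 in zinc lost it without knockout zinc replicate 1 (0.0668) or 2 (0.0515) or wild-type zinc replicate 2 (0.0607), and with library size alone (0.0951). Without knockout cadmium replicate 1 the genotypes differed in EIF2AK2 in cadmium (0.00531) and water (0.0394). The EIF2AK2 difference in cadmium, at 0.0711 with all libraries, passed in 6 of 25 alternative settings. Among these were also DESeq2 (0.0382), library size alone (0.00115) and genes of at least 5 CPM in 3 libraries (0.0197). EIF2AK3 in zinc, at an adjusted p of 0.0517 with all libraries, passed without wild-type zinc replicate 3 (0.00914), wild-type cadmium replicate 1 (0.0373) or 3 (0.0314) or knockout cadmium replicate 1 (0.0473) or 3 (0.0404). It also passed with no filter on low counts (0.0499). ATF4 in knockout, cadmium against zinc, lost its call without cadmium replicate 2 (0.114) or 3 (0.14) or zinc replicate 1 (0.0608) or 2 (0.0837). That call was also lost with DESeq2 (0.0993) and, in edgeR, with no filter on low counts (0.1).

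Library size alone moved the median of all genes to -0.132 for cadmium in wild type and -0.116 in knockout, and the share of called genes that were higher from 48.6% to 35.5% and from 49.3% to 28.8%, and from 50.4% to 37.2% for zinc in knockout. For the cadmium response difference that share went from 49.9% to 39.7% when only the groups compared were fitted. Libraries with the same replicate number shared a deviation that was small but seen in most libraries. The 45 pairs correlated at -0.0249 to 0.0864 (median 0.0163, against -0.0076 for other pairs), none over 0.1. Yet 16 of 18 libraries correlated best with a library of their own number. The main fit had no term for the replicate number. With a replicate block, all 110 results on members kept their call, and the zinc response difference was called for 5072 genes in place of 4767. The depth was enough for all 10 members to be tested.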
